A study of Mus musculus with 6 samples.

Results

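The genes described here are 10 components of the circadian clock and its direct transcriptional outputs in mouse liver: Per1, Per2, Per3, Cry1, Arntl, Npas2, Nr1d1, Nr1d2, Dbp and Tef. They were taken as every non-control array probe whose accession maps to one of these symbols, which gave 11 probes, and 8 of the 10 genes were measured above background among 20658 features in all. Livers came from male Apoe-deficient mice on the C57BL/6J genetic background, which lack apolipoprotein E in both groups. The mice ate a purified Western diet with 0.15% cholesterol and 20% palm oil, either alone (9 mice) or with 1% squalene (10 mice), for 11 weeks, and the labels give no age. RNA was combined into 4 pools per diet, each from 2 or 3 animals, and every dual-colour array set 1 squalene pool against 1 Western pool. Western pools 1 to 4 met squalene pools 5 to 8 in pairs 1 to 4, so the pool pair was the replicate (n = 4). Animals were kept under 12-h light and 12-h dark, and the labels give neither the hour at which each liver was removed nor a fast before it (a 4-h fast is given for the first blood sample).

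The clock of the hepatocyte is a feedback loop. The activators ARNTL (BMAL1) and CLOCK, or its relative NPAS2, bind E-boxes and switch on the Per and Cry genes, whose proteins return to block them. The same activators drive the nuclear receptors NR1D1 and NR1D2 (REV-ERB alpha and beta), which repress Arntl through ROR elements, and the PAR bZIP factors DBP and TEF, which act on D-boxes in genes of liver metabolism. In mouse liver these transcripts swing over the day, with Arntl and Npas2 in only roughly opposite phase to Dbp, Tef, Nr1d1 and the Per genes.

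Promoter windows show some of these elements in some of the members themselves. Windows of 250 bases before the RefSeq start (GRCm38.p6) were searched on both strands for the E-box CACGTG, the D-box TTATGTAA or TTACGTAA, and the ROR element TAGGTCA or TGGGTCA. The table held 12 windows for 9 of the 10 genes. An E-box lay in 4 of the 12, belonging to Cry1, Per1 and Tef, against 6.02% of all 32851 windows. A D-box lay in 1 of them, that of Per3, against 0.931% of all windows. The ROR element lay in 0 of the 12, against 5.38% of all. These 3 windows are shown because they hold the elements through which the loop and its output arm are known to act, with the matching letters in capitals and the rest in lower case, 5′ to 3′ on the gene's strand. The matched letters do not overlap between motifs and are a description of the sequence, not of binding.
Per1, chr11:69098699-69098948, + strand: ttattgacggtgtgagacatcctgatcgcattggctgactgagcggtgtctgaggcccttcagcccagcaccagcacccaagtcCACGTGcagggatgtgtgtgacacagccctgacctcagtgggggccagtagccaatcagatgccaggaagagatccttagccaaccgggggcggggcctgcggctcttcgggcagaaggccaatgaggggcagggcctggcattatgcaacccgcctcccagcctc
Tef, chr15:81802423-81802672, + strand: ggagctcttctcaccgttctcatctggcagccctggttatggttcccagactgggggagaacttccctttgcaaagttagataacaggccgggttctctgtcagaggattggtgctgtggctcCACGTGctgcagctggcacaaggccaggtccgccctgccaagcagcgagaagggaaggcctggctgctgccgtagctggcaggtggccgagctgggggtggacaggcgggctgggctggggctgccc
Per3, chr4:151044666-151044915, - strand: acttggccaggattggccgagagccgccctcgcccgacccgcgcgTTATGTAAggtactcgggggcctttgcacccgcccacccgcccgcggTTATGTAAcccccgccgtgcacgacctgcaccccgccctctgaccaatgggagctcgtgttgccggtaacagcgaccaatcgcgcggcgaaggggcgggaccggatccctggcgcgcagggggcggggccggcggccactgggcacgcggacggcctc
In this Per1 window the E-box begins 166 bases before the start, and in this Tef window 127 bases before it. The window of a further Per1 start (chr11:69099902-69100151) held none of these motifs, nor did those of Npas2, Dbp, Arntl, Nr1d1 and Nr1d2. A further start of Tef carries an E-box 138 bases upstream, and that of Cry1 lies 60 bases upstream. The D-boxes of Per3 begin 205 and 158 bases before its start.

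Each spot gave an intensity in both channels, with 46.64% to 51.06% of spots well above background in the red channel and 47.19% to 51.87% in the green, and none saturated. The number of arrays limits the precision. Squalene was labelled with Cy5 in pairs 1 and 4 and with Cy3 in pairs 2 and 3. Pairs 1 and 2 were hybridised on 1 array on each of 2 slides, with repeat arrays correlating across features at r = 0.847 and r = 0.879, and pairs 3 and 4 on slide 2 alone. Between arrays of different orientation the correlation of squalene over Western ratios went as low as -0.425. All 10 hepatocyte markers were measured, with a summed intensity of 932600 to 1156000 in Western pools and 954500 to 1202000 in squalene pools. Where a list of cell markers differs between pools of liver RNA, fewer cells of that type and less RNA per cell cannot be told apart.

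Adding squalene was compared with the Western diet alone for each gene. By diet, 7 of the 8 measured clock genes had a mean log2 ratio of squalene over Western above 0 and 1, Arntl, below 0, but the spread between pool pairs was larger than the mean for every one of them. Their median log2 ratio was 0.18, against 0.0029 over all features. None passed the test: after Benjamini-Hochberg adjustment of limma's p values over all features, 0 of 8 were under 0.05, as were 0% of the features. At an unadjusted limma p of 0.05 the count was also 0 of 8, against 2.47% of features. Each of the 8 had an adjusted p of 1, and the unadjusted limma p values ran from 0.214 for Per1 to 0.673 for Per3. A single sign in all 4 pairs was seen in 1 of 8, Nr1d1, against 6.38% of features. Its ratio in pair 2 was 0.11 on slide 1 and -0.081 on slide 2, so its sign in that pair is not settled.

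**Figure D1:**
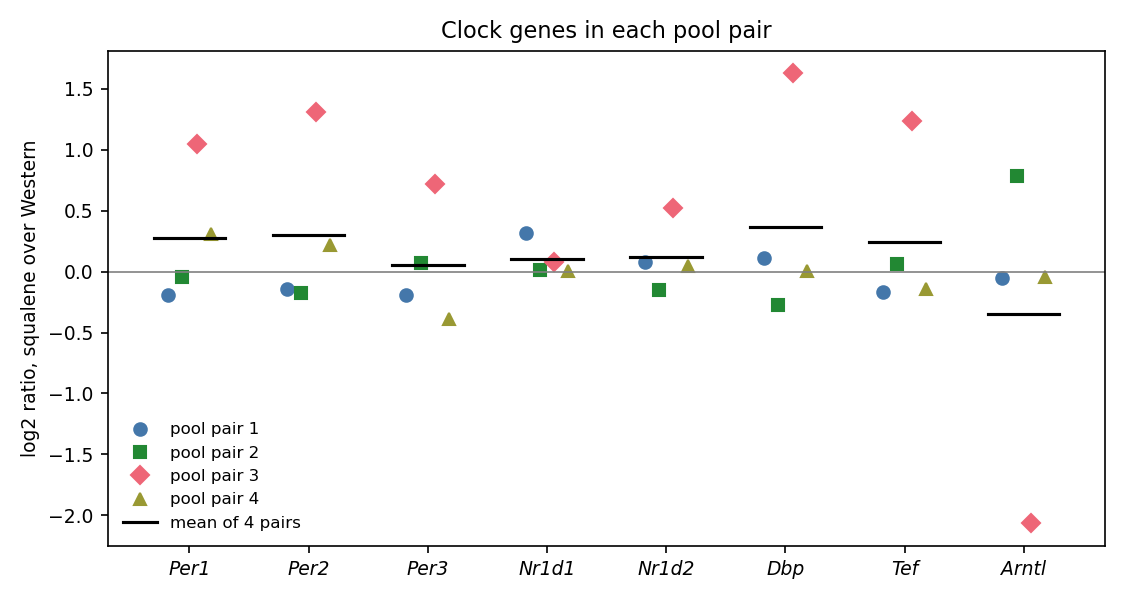
Log2 ratio of squalene over Western (y axis) for each measured clock gene (x axis) in the 4 pool pairs (coloured points), with the mean of the 4 pairs as a black bar. Pair 3 is the highest for Per1, Per2, Per3, Nr1d2, Dbp and Tef and the lowest for Arntl, whereas pairs 1, 2 and 4 lie between -0.39 and 0.31 apart from Arntl in pair 2.

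The diet means of 7 of the 8 genes, all but Nr1d1, rested on pool pair 3. In that pair 5 of the 8 genes differed 2-fold or more, against 0.866% of features. In pairs 1, 2 and 4 the count was 0 of 8, with 0.373%, 0.315% and 0.382% of features. Averaged over the 7 repressor and output genes (Per1, Per2, Per3, Nr1d1, Nr1d2, Dbp and Tef), the log2 ratio was -0.026, -0.071, 0.93 and 0.0073 in pairs 1 to 4, and all 7 were above 0 in pair 3. With pair 3 left out, the fitted ratios of Per2, Per3, Nr1d2, Dbp and Tef were below 0 (-0.066, -0.11, -0.046, -0.11 and -0.047), that of Arntl was above 0 at 0.37, Per1 was at 0.0059 and Nr1d1 at 0.086, and the median of the 8 was -0.047. With pair 2 left out instead, 7 of the 8 had an unadjusted limma p under 0.05, against 6.31% of features. Pair 3 was then the only pair with squalene in Cy3, so the fit had no second pair of that orientation from which to judge its spread.

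Arntl, which encodes the activator BMAL1, had the widest range. Its log2 intensity was 8.33, 6.44, 8.66 and 8.07 in Western pools 1 to 4 and 8.27, 7.22, 6.60 and 8.03 in squalene pools 5 to 8. Pools 2, 7 and 6 were low and the other 5 were high, so the diets overlapped over nearly their whole range. By pair the log2 ratio was -0.055, 0.78, -2.07 and -0.043, that is 4.19-fold lower with squalene in pair 3 and 1.72-fold higher in pair 2. The mean was -0.35 ± 1.21 (SD, n = 4; SE 0.45; limma, Benjamini-Hochberg adjusted p = 1). With pair 3 left out, Arntl was the 1 member with an unadjusted limma p under 0.05 (0.00422), at 0.37 and against 4.22% of features, so that its sign rested on this pair. In that fit pair 2 is the only pair with squalene in Cy3. Arntl's own spread then comes from pairs 1 and 4 alone, which were nearly equal (-0.055 and -0.043). Its p therefore rests mostly on limma's moderation over all features. Between the highest and the lowest Western pool Arntl differed 4.67-fold, a range that only 12 of the 20658 features reached or passed, itself included. Among squalene pools it differed 3.19-fold, a range reached by 97 features. Npas2, the other activator listed, was well above background in 0 pairs in either diet and has no ratio here.

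Among the repressors, Per1 is a period gene that also responds to hormonal and light cues. Its log2 intensity was 11.67, 12.14, 11.21 and 11.65 in Western pools 1 to 4 and 11.48, 12.10, 12.26 and 11.95 in squalene pools 5 to 8. Western pool 3 was the lowest and squalene pool 7 the highest, and the diets overlapped. The ratios were -0.19, -0.047, 1.05 and 0.31, with a mean of 0.28 ± 0.55 (SD, n = 4; SE 0.20; limma, Benjamini-Hochberg adjusted p = 1). Without pair 3 the fitted ratio of Per1 was 0.0059.

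Per2 encodes a main repressor of CLOCK and BMAL1. It stood at 7.31, 8.19, 7.16 and 7.63 log2 units in Western pools and at 7.17, 8.02, 8.47 and 7.85 in squalene pools, with pools 7, 2 and 6 the highest. The ratios were -0.14, -0.17, 1.31 and 0.22, with a mean of 0.30 ± 0.69 (SD, n = 4; SE 0.25). Per3, a period gene less needed for the rhythm itself, was read by a dim probe that was well above background in 4 pairs for Western and 3 for squalene. It measured 6.30, 6.88, 6.32 and 6.72 in Western pools and 6.11, 6.95, 7.04 and 6.33 in squalene pools, pools 7, 6 and 2 again being the highest. Its ratios of -0.19, 0.073, 0.72 and -0.39 averaged 0.053 ± 0.48 (SD, n = 4; SE 0.12), the smallest mean of the 8. Cry1, the cryptochrome that holds the late repression of the loop, was well above background in 2 pairs per diet and did not pass the filter.

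The REV-ERB genes had smaller ratios. Nr1d1, the receptor that represses Arntl, had log2 intensities of 8.72, 9.27, 8.64 and 9.03 in Western pools and 9.03, 9.29, 8.72 and 9.04 in squalene pools. Squalene pool 7, which was highest for Per1, Per2, Per3, Dbp and Tef, was the lowest squalene pool for Nr1d1. The ratios were 0.31, 0.015, 0.076 and 0.0031, with a mean of 0.10 ± 0.14 (SD, n = 4; SE 0.072), pair 1 being the farthest from 0. Its level differed by up to 0.39 between repeat arrays of a pool, against a range of 0.63 over the Western pools, so the order of its pools is not resolved. Nr1d2, its close relative with overlapping function, was at 9.42, 9.91, 9.27 and 9.45 in Western pools and 9.50, 9.75, 9.79 and 9.49 in squalene pools. Pools 2, 7 and 6 were the highest and the other 5 lay within 9.27 to 9.50. The ratios were 0.079, -0.15, 0.52 and 0.043, with a mean of 0.12 ± 0.29 (SD, n = 4; SE 0.12).

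The output factors Dbp and Tef were more than 2-fold apart in pair 3. Dbp, the D-box activator with one of the largest daily swings in liver, had log2 intensities of 13.32, 14.53, 12.91 and 13.69 in Western pools and 13.44, 14.25, 14.54 and 13.70 in squalene pools. Squalene pool 7 and Western pool 2 were the highest and Western pool 3 the lowest, so the diets overlapped. The log2 ratio was 0.12, -0.27, 1.63 and 0.0069, that is 3.09-fold higher with squalene in pair 3 and close to even in pair 4, with a mean of 0.37 ± 0.86 (SD, n = 4; SE 0.30). A second, dimmer probe of Dbp gave -0.15, -0.42, 1.68 and -0.24, so the probes differed in sign in pairs 1 and 4 and were alike in pair 3. Tef, the related PAR bZIP factor whose promoter E-box is shown above, was at 13.63, 14.18, 13.30 and 13.87 in Western pools and 13.46, 14.24, 14.53 and 13.73 in squalene pools. Its ratios were -0.17, 0.063, 1.23 and -0.14, with a mean of 0.25 ± 0.67 (SD, n = 4; SE 0.19), and pair 3 stood apart from the other 3 by Dixon's criterion. That was so for 1 of the 8 genes, against 1.64% of features standing apart in pair 3.

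**Figure D2:**
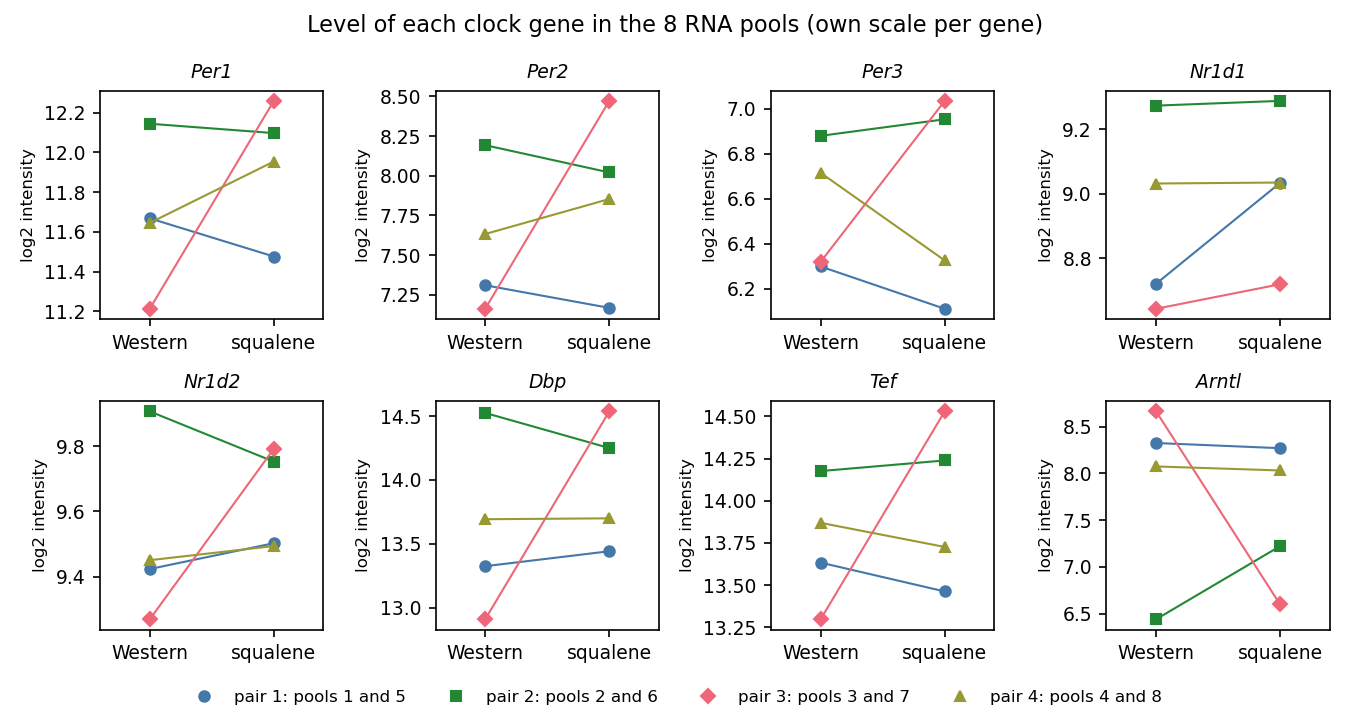
Log2 intensity (y axis, a separate scale for each gene) of the 8 measured clock genes in the Western and squalene pools, with a line joining the pools of each pair. The line of pair 3 crosses the other 3 in the panels of Per1, Per2, Nr1d2, Dbp, Tef and Arntl, 2 of them in that of Per3 and none in that of Nr1d1, and in pair 2 both pools lie at the same end of each panel.

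Levels differed more among pools of the same diet than between the diet means. By Arntl, from lowest to highest, the order of the pools was 2, 7, 6, 8, 4, 5, 1 and 3, and by Dbp, from highest to lowest, it was 7, 2, 6, 8, 4, 5, 1 and 3. Neighbours 2 and 7 differed by less than the largest difference between repeat arrays of a pool for both genes (0.33 for Arntl and 0.19 for Dbp), as did 8 and 4, 4 and 5 for Arntl, and 5 and 1. Pool 6 stood beyond those differences from 7 and from 8. The low-Arntl end held Western pool 2 and squalene pools 6 and 7, and the high-Arntl end held Western pools 1, 3 and 4 and squalene pools 5 and 8. Pair 3 joined Western pool 3, at the high-Arntl end, to squalene pool 7, at the other, whereas pair 2 joined pools 2 and 6 and pairs 1 and 4 joined pools of the high-Arntl end. Dbp differed 3.07-fold among the Western pools, a range reached by 56 features, and 2.14-fold among the squalene pools, a range reached by 459.

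**Figure D3:**
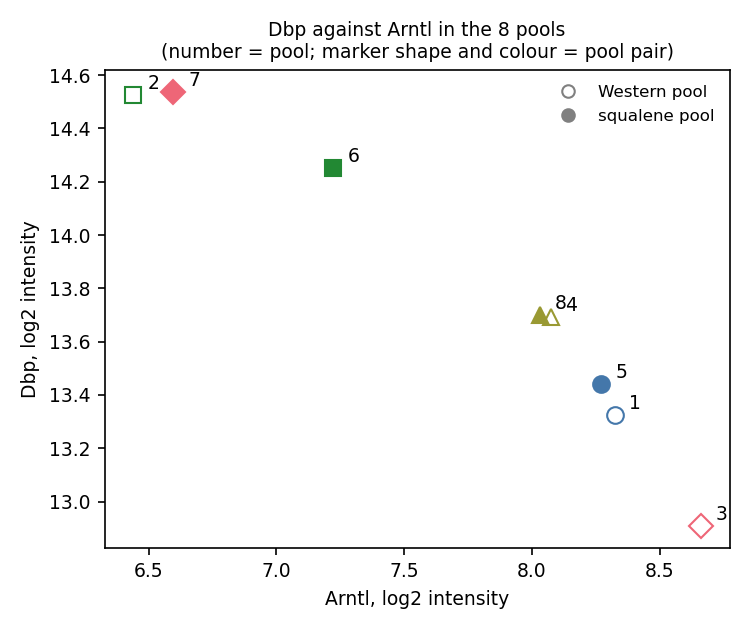
Log2 intensity of Dbp (y axis) against that of Arntl (x axis) in the 8 pools, with open markers for Western and filled markers for squalene and the pool number beside each. Pools 2, 7 and 6 lie at the upper left and pools 8, 4, 5, 1 and 3 follow downwards to the right, each diet having pools at both ends.

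Every pool was read on slide 2, and pools 1, 2, 5 and 6 also on slide 1. Pool 2 was read in Cy5 and pools 6 and 7 in Cy3, while at the high-Arntl end pools 1 and 4 were read in Cy3 and pools 3, 5 and 8 in Cy5. Repeat arrays gave Arntl in pool 2 as 6.49 on slide 1 and 6.39 on slide 2, and in pool 1 as 8.49 and 8.16. For Dbp they gave 14.59 and 14.47 in pool 2, and 13.42 and 13.23 in pool 1. The members' ratios on repeat arrays of the same pair differed by at most 0.22 in log2. Levels in single channels remain open to dye bias, since each pool was read in 1 dye only. Pools 3, 4, 7 and 8 were on a single array each.

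As a description with no test, each gene was set against the mean of the 7 repressor and output genes over the 8 pools, after the mean of each dye was taken off. Pearson's r was 0.992 for Dbp, 0.987 for Tef, 0.961 for Per2, 0.958 for Nr1d2, 0.950 for Per1, 0.900 for Per3 and 0.605 for Nr1d1, all of which are part of that mean. Arntl, which is not, had r = -0.967. Pools read on the same array share their hybridisation. Of 13303 other features with a symbol, those most like this mean were Narf (0.990), Coq10b, which handles coenzyme Q (0.988), Lrrc28 (0.986), 3110082I17Rik (0.982), the thioredoxin reductase Txnrd3 (0.980) and Snrpn (0.979). Those most opposed were Ypel2 (-0.992), the histone deacetylase Hdac5 (-0.991), Phf21a (-0.989), Lrfn3 (-0.988), the growth hormone signal carrier Stat5b (-0.987) and 4833422C13Rik (-0.985). In pair 3, Coq10b was at 0.88 and Lrfn3 at -1.02 on the log2 ratio scale, and neither passed the diet test (limma, Benjamini-Hochberg adjusted p = 1 for both).

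Other genes of the loop were measured for 17 of the 20 listed (Bhlhe41, Rorb and Arntl2 were not). Of these 0 had an unadjusted limma p under 0.05, against 2.47% of features, and their median log2 ratio was 0.035. The smallest p values belonged to Btrc, a ubiquitin ligase component that targets PER proteins, at -0.072, Clock, the partner of BMAL1, at -0.11, Nfil3, a repressor at D-boxes, at -0.22, and the F-box gene Fbxl21 at 0.055. Clock was read at 8.15, 7.51, 7.89 and 7.87 in Western pools and 8.00, 7.72, 7.43 and 7.81 in squalene pools, lowest in pools 7, 2 and 6. Nfil3, which competes with DBP and TEF, was read at 10.97, 10.54, 11.86 and 10.96 in Western pools and 11.22, 10.66, 10.57 and 11.01 in squalene pools, lowest in pools 2, 7 and 6 and highest in pool 3. In pair 3 the ratio of Nfil3 was -1.29 and that of Clock -0.47, both on the side of Arntl.

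Genes chosen after their values were seen lay on the other side in pair 3. Hlf, the third PAR bZIP factor, was at 0.75, Cry2, the second cryptochrome, at 0.61, and Bhlhe40 (DEC1), an E-box repressor, at 0.61. For Usp2, a rhythmic deubiquitinase, and Ciart, a repressor of CLOCK and BMAL1, pair 3 was not alone. Usp2 was at -0.41, -0.75, 1.15 and 0.88 in pairs 1 to 4 and Ciart at -0.37, -0.82, 1.11 and 0.81, so for both pair 4 was nearly as high as pair 3. The kinase genes Csnk1d (-0.43 in pair 3) and Csnk1e (-0.20) and the AMPK subunit gene Prkaa1 (-0.061), which act on clock proteins, had smaller ratios there.

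Rhythmic outputs of the liver were measured for 18 of the 19 listed (Cyp2a5 was not). At an unadjusted limma p under 0.05, 1 was higher and 1 lower with squalene, that is 2 of 18 against 2.47% of features, and 0 passed after adjustment over all features. Cirbp, a cold-induced RNA-binding protein gene, had ratios of -0.24, -0.79, -0.68 and 0.068 and a mean of -0.41 ± 0.40 (SD, n = 4; SE 0.073; limma, unadjusted p = 0.00245, Benjamini-Hochberg adjusted p = 1). Its small SE reflects the orientation term of the model, since the SD between pairs was about as large as the mean. The transferrin receptor Tfrc was at 0.14, 0.085, 0.15 and 0.18, with a mean of 0.14 ± 0.040 (SD, n = 4; SE 0.054; limma, unadjusted p = 0.0494, Benjamini-Hochberg adjusted p = 1), above 0 in all 4 pairs. Avpr1a, the hepatic vasopressin receptor, averaged -0.38 and Noct, the deadenylase-related gene nocturnin, averaged 0.66, and neither reached an unadjusted limma p of 0.05. Both did in the authors' deposited values, centred on their median and fitted in the same way (Avpr1a -0.39, Noct 0.68), and Avpr1a did with median centring in place of loess (-0.35).

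The median of the 18 measured outputs was 0.39 in pair 3. In that pair 5 of the 18 differed 2-fold or more, against 0.866% of features, and these are named after their values were seen. The uridine phosphorylase gene Upp2 was at 1.88, Noct at 1.65 and the cell cycle kinase gene Wee1 at 1.30, and the fatty acid elongase gene Elovl3 was at -2.12 and Avpr1a at -1.18. Elovl3 was at 12.28, 9.88, 12.35 and 11.69 in Western pools and 11.62, 10.76, 10.24 and 11.86 in squalene pools, lowest in the same pools 2, 7 and 6 as Arntl. Wee1 was at 7.69, 8.52, 7.38 and 7.95 in Western pools and 7.42, 8.33, 8.68 and 8.28 in squalene pools, highest in pools 7, 2 and 6. Noct was also high in pair 4, at 1.31, as were Usp2 and Ciart. With pair 3 left out, the fitted ratios of Cirbp, Upp2, Cyp7a1 and Ppara, also named after their values were seen, were -0.44, -0.37, -0.34 and -0.21. In that fit a gene's own spread comes from pairs 1 and 4 alone and is moderated by limma over all features.

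**Figure D4:**
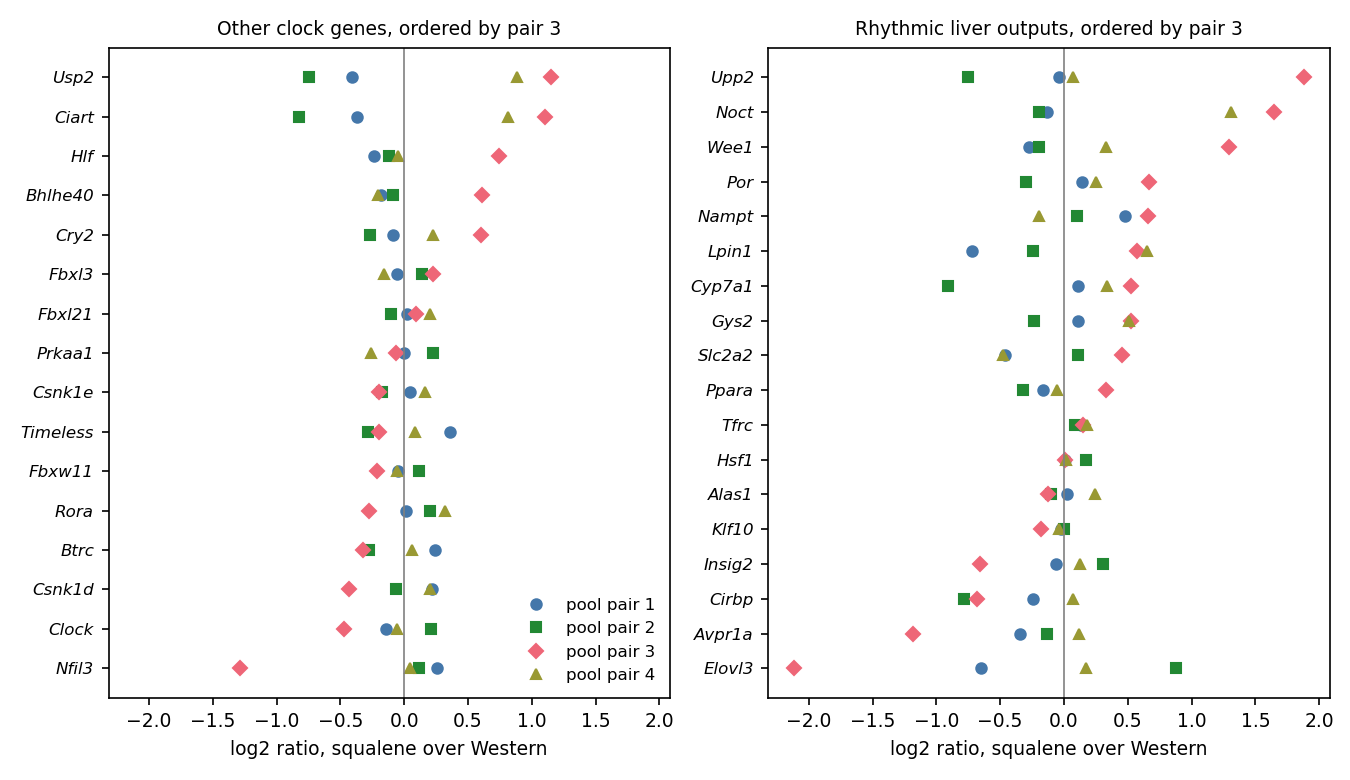
Log2 ratio of squalene over Western (x axis) in the 4 pool pairs (coloured points) for other clock genes and rhythmic liver outputs (y axis), ordered by pair 3, with 1 measured clock gene not drawn. Pair 3 reaches from -1.29 for Nfil3 to 1.15 for Usp2 on the left and from -2.12 for Elovl3 to 1.88 for Upp2 on the right, with pairs 1 and 2 on the opposite side of 0 for Usp2, Ciart, Upp2, Noct and Wee1.

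Other transcripts also differed between the pools of pair 3. The 4 globin genes were between -1.91 and -1.60 in pair 3, and Alas2, the other gene of the red cell list, was at 0.255. The list (5 of 5 measured) had a median of -1.64 in pair 3, against -8.6e-05, -0.63 and 0.15 in pairs 1, 2 and 4. Its summed intensity was 108300 to 253800 in Western pools, pool 3 being the highest, and 77160 to 165400 in squalene pools, pool 7 being the lowest. Kupffer cell markers (9 of 10 measured, Cd68 not) were below 0 in 9 of 9 in pair 3, with a median of -0.54, and in 9 of 9 in pair 4, with a median of -0.49, and above 0 in 7 of 9 in pair 1 (median 0.13) and 8 of 9 in pair 2 (median 0.43). Their summed intensity was 71470 to 116900 in Western and 65830 to 126500 in squalene pools. Stellate cell and fibroblast markers (10 of 10 measured) had a median of -0.50 in pair 3 and -0.81 in pair 2, against 0.10 in pair 1 and 0.12 in pair 4, and their sums were 31230 to 36740 in Western and 24190 to 35640 in squalene pools. Their part in the clock gene ratios was not tested.

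Genes that follow fasting and feeding lay on both sides in pair 3. Of the 12 listed, 6 were above 0, and their median was 0.039. The fasting hormone gene Fgf21 was at -2.98 and the fasting-induced kinase gene Pdk4 at -1.79 on the log2 ratio scale, whereas Pck1, the fasting-induced enzyme of glucose synthesis, was at 0.59 and Cpt1a, which admits fatty acids to mitochondria, at 0.33. Among 11 glucocorticoid-responsive genes, 6 were above 0 in pair 3, with a median of 0.056. In that pair 3 of the 11 differed 2-fold or more, Tsc22d3 among them at 1.43, against 0.866% of features. Immediate early genes, which respond to handling and signalling within minutes, had a different pattern: 12 of 12 were above 0 in pair 4, with a median of 1.27, and 1 of 12 in pair 3, with a median of -0.26. The part of these genes in the clock gene ratios was not tested.

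Labelling orientation was examined as the difference between pairs with squalene in Cy5 and pairs with it in Cy3. By the unadjusted limma p, 1 of the 8 clock genes, Per3, passed 0.05 (difference -0.68, SE 0.24, unadjusted p = 0.0339), against 15.3% of features. Over all features 0% passed after adjustment (limma, Benjamini-Hochberg), and Per3 had an adjusted p of 0.294. Because pair 3 is 1 of only 2 pairs with squalene in Cy3, dye and the pools that share an orientation cannot be told apart.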

How the data were processed

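Pools of liver RNA were compared on 6 dual-colour Agilent arrays, with 200 ng RNA per labelling. Per the file headers, the scanner software was Agilent Feature Extraction 10.7.3.1. The deposited scanner files hold intensity per spot and around it in both channels, processed intensity, log10 ratios and marks for control, outlying and detected spots. The authors' deposited value table holds log10 ratios. Compared with the scanner files, these were squalene over Western from median signals without normalisation (equal within 0.001 for 99.93% to 99.94% of spots), which settled scale, centring and direction. Its column medians were 0.254 and 0.27 (pair 1), -0.217 and -0.257 (pair 2), -0.27 (pair 3) and 0.259 (pair 4), and 2 impossible cells per column of pair 1 were dropped.

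Median signals went through normexp (offset 50) and loess in limma 3.58.1 (R 4.3.3), controls having weight 0 and outlying spots being omitted. Replicate spots, then repeat arrays, were averaged. A probe needed detection in 3 of 4 pairs in either diet's channel, and a gene's brightest probe stood for it. RefSeq symbols (GRCm38.p6) were found for 26762 of 55681 probes. The arrays' own annotation is of an earlier build, so coordinates are RefSeq's alone. The limma model had a squalene effect and an orientation term, with Benjamini-Hochberg adjustment over 20658 features. Levels are log2 intensities after loess and Aquantile. The fit was also run on simulated data with independent noise, no orientation effect and added changes of 2-fold or more. Those data do not cover orientation differences or changes as small as the members' means. Which animals formed a pool is not stated. The p-values rest on the spread of ratios between pool pairs of the same orientation, moderated by limma over all features. The spread of levels among pools of the same diet does not enter them directly.

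The genes, lists and tests were chosen with earlier results of these data known. Named genes were every member and member probe, up to 4 genes of each pathway list by smallest unadjusted p, and the 6 most like and 6 most opposed to the repressor and output genes over 8 pools. Single-gene results of 2 listed genes are not reported here, and the list counts and medians keep them. Genes said to be chosen after their values were seen fall outside that rule, as do those given for other cell types, feeding, glucocorticoids and single alternatives. Alternatives varied the background correction, normalisation, filter, dye term, probes per gene, slide, variance model and pool pairs.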

Additional observations from a re-analysis of the deposited data

Results flagged for a closer look

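A pool pair far from the other 3, by Dixon's criterion for 4 values, was looked for in the members' ratios and pool levels and in 47 further genes of the pathway lists and likeness ranking. Of 24 groups from the members and 47 from the further genes, 6 were marked, where chance marks about 1 in 20 such groups. That rate does not hold for the likeness ranking, which holds Snrpn and Phf21a. Its genes were picked for following, or opposing, a mean that was itself high in pair 3. Tef was marked for its log2 ratio of 1.23 in pair 3, Nfil3 for -1.29, Bhlhe40 for 0.61, Snrpn for 0.38 and Phf21a for -0.63, all in pair 3. Hsf1, the heat shock factor gene, was marked for 0.18 in pair 2.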

How the results depend on the processing

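Over 11 other settings of background correction, normalisation, filter, dye term, probes, slide and variance model, the 8 members kept the sign of their means (Per3 over 10, having no value under the stricter filter), 0 had an unadjusted limma p under 0.05, and the median ran from 0.18 to 0.20 where the same 8 were measured. It was 0.11 over 10 genes with no filter, which adds Cry1 and Npas2, and 0.25 over 7 with the stricter filter. Features past an adjusted p of 0.05 numbered 2 with median centring, 8 from the deposited value table and 3 with a slide covariate and the pool pair as a random block, against 0 as reported. Other clock genes past an unadjusted p of 0.05 numbered 1, Btrc, with scanner-processed signals. Rhythmic outputs numbered 1, Cirbp, with the stricter filter, no dye term, the mean of all probes, slide 2 alone, the random block and the intensity trend, 3 (Cirbp, Noct and Avpr1a) from the deposited table and 2 (Cirbp and Avpr1a) with median centring, against 2 (Cirbp and Tfrc) as reported. Members with an orientation difference numbered 6 from the deposited table and 2 with the random block, against 1 as reported. They numbered 0 under the stricter filter, where Per3 was not tested. The share of all features with such a difference was 15.3% as reported and was not counted under the other settings. These counts therefore cannot be read as particular to the clock genes. The cause of the changes between settings was not tested.

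Each fit that left out a pool pair held only 1 pair of that pair's orientation. Counts past a p limit are therefore not compared between these fits. Leaving out each pair in turn, the members' median ran from -0.047 to 0.42. Without pair 3, Per2 (-0.066), Per3 (-0.11), Arntl (0.37), Nr1d2 (-0.046), Dbp (-0.11) and Tef (-0.047) turned sign, and without pair 2 they stood at 0.67, 0.21, -1.06, 0.29, 0.85 and 0.54, the other ends of their ranges. Without pair 4, the fitted ratio of Nampt, a rhythmic output, was 0.43, against 0.26 with all pairs. The limma test was itself paired, since each ratio sets the pools of a pair against each other. No separate paired analysis was run. SEs of the members' ratios ran from 0.072 to 0.45, against a median of 0.065 over all features. For members and other features alike, 4 pool pairs limit what could be detected.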
